A study of Gallus gallus with 10 samples.

Results

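The genes of the sex chromosomes Z and W were described in the kidneys of 10 broiler chickens. Members were taken by position alone, as the genes that the Galgal4 annotation places on Z or W and that received 10 or more counts summed over the 10 libraries. There were 657 members, 656 on Z and 1 on W, of 17108 genes in the table and 14099 with 10 or more counts. The table held 859 Z genes and 16 W genes in all, of which 121 Z genes were at 0 counts in these libraries, 82 Z genes had 1 to 9 counts, and 15 W genes fell short of the minimum. Broiler chickens were fed from hatch on diets with 0.8% Ca (3 birds), 1.0% Ca (4 birds) or 1.2% Ca (3 birds), with the same non-phytate phosphorus and added phytase in each diet, and kidneys were taken at 21 days post-hatch from birds whose body weight was close to the mean of their treatment. RNA-seq was run with 1 library per bird, and the libraries held between 6176553 and 7857813 counted fragments. The labels give the tissue, the breed and the Ca concentration of each bird but not its sex. Birds were housed in floor pens, and the pen of each bird is not given. The p-values set a difference against the spread between these 10 birds. According to the file header, lane 1 held the birds at 1.2% Ca together with replicates 1 and 2 of the 1.0% Ca group, and lane 2 held those at 0.8% Ca together with replicates 3 and 4 of the 1.0% Ca group. No lane held birds at both 0.8 and 1.2% Ca. Between these diets, and for the slope, lane and diet can be told apart only through the birds at 1.0% Ca.

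In birds the male carries a pair of Z chromosomes and the female carries a single Z and the W. The W is small and gene-poor, and most of its known genes are surviving copies of genes that are also on Z. Several of those copies are expressed in many female tissues. Dosage compensation of Z is incomplete in chicken, so many Z genes are expressed at a higher level in males than in females, and a measurement of W transcripts together with the Z level is the usual way to read the sex of a bird from RNA. In broiler kidney, the tissue that reabsorbs filtered Ca and phosphate, the Z also carries genes with no part in sex, such as the lipase gene LPL and the matrix gene VCAN.

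W transcripts were close to the limit of detection in all 10 birds. The 16 W genes received 118 counts of 69600202 counts in the 10 libraries together. Of these, 112 came from ENSGALG00000025736, a gene without a name in the sources used here that occupies W 4704 to 10272 of Galgal4 on the minus strand, with 5378 bases of exons. The other 15 W genes shared 6 counts, never more than 1 count per gene and library, and 12 of the 16 were at 0 in each bird. Several of these 12 are short, with 83 to 255 bases of exons, and the rest have 1311 to 6672 bases. ENSGALG00000009227 had 3 counts, ENSGALG00000005785 had 2 counts and ENSGALG00000014184 had 1 count in all libraries together. A count of 0 in a library allows a level of up to 3 counts, which is between 0.383 and 0.489 CPM (a count scaled to the size of its library, where 1 CPM is 6.13 to 7.82 counts), and covers counting error only. Fragments that match more than 1 place could not be assigned, so a W gene that is nearly identical to its Z copy may be counted too low.

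The leading W gene was counted in every library. At 0.8% Ca, replicates 1, 3 and 4 had 9, 12 and 6 counts. At 1.0% Ca, replicates 1 to 4 had 1, 16, 6 and 15 counts, and at 1.2% Ca, replicates 1 to 3 had 30, 9 and 8 counts. The groups overlapped, the single count was in replicate 1 at 1.0% Ca and the 30 counts were in replicate 1 at 1.2% Ca. In order of Ca concentration, the summed W level was 1.56 ± 0.635, 1.41 ± 1.05 and 2.12 ± 1.68 CPM (mean ± SD over 3, 4 and 3 birds), and these differences were smaller than the spread between birds. The fitted slope of the leading gene from 0.8 to 1.2% Ca was 0.66 on the log2 scale (SE 0.704, adjusted p = 0.803 by the edgeR quasi-likelihood test with Benjamini-Hochberg adjustment), and it was -0.22 without replicate 1 at 1.2% Ca.

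The level of Z relative to the autosomes was also close to equal in the 10 birds. For each bird, the log2 CPM of each tested gene was taken relative to its mean over the birds, and the median over 579 Z genes was compared with that over 11033 genes of chromosomes 1 to 28. Replicates 1, 3 and 4 at 0.8% Ca were at -0.039, -0.050 and -0.028 on this log2 scale. At 1.0% Ca, replicates 1 to 4 were at 0.015, 0.00017, 0.0042 and 0.016, and at 1.2% Ca, replicates 1 to 3 were at 0.012, 0.019 and 0.036. The 10 birds spanned 0.085 on the log2 scale, where a gene that followed its copy number without compensation would differ by 1 between a single copy and a pair. Per length of exon, the median FPKM (CPM divided by the exon length in kilobases) of Z genes divided by that of autosomal genes lay between 1 and 1.07 in the 10 birds. Z genes took between 4.3% and 4.6% of the counts of a library.

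**Figure D1:**
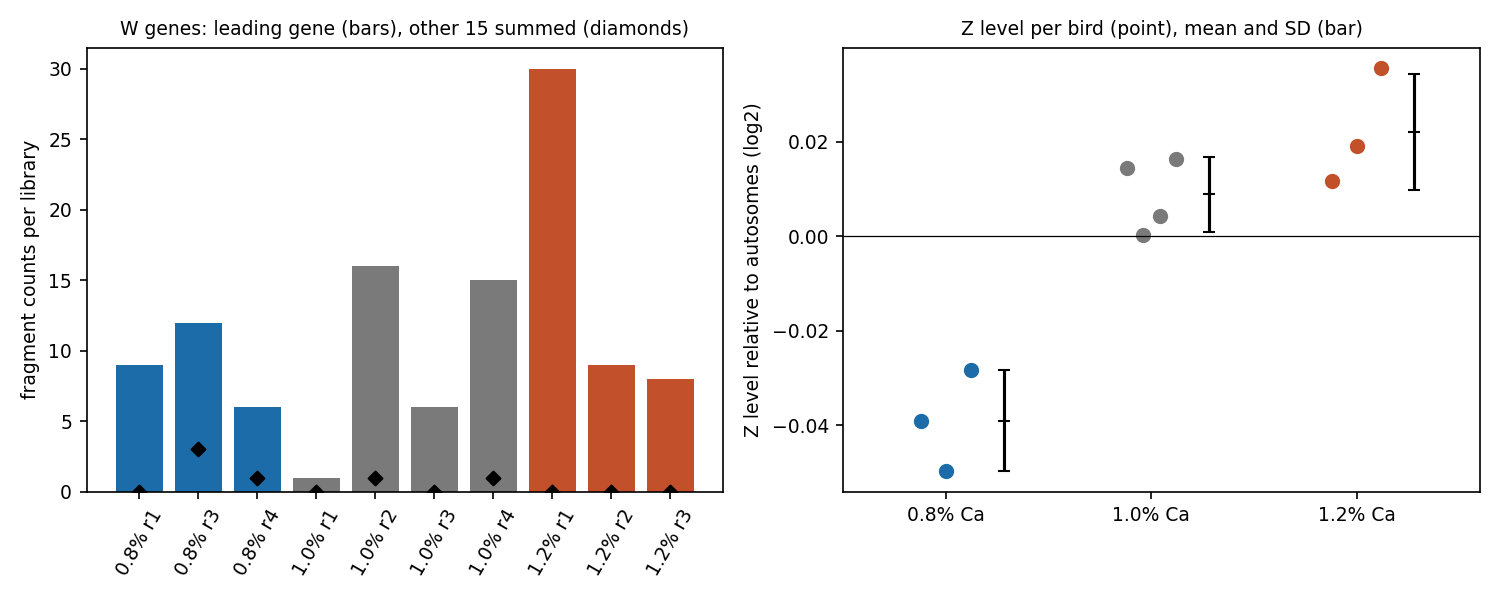
Left, fragment counts of the leading W gene (bars) and of the other 15 W genes summed (diamonds) in each of 10 kidney libraries, labelled by Ca concentration and replicate. Right, the Z level relative to autosomes on the log2 scale, 1 point per bird with the group mean and SD: W counts stayed at 30 or fewer and Z levels spanned 0.085.

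No bird stood apart in the manner of a mixture of sexes, with W genes and the Z level moving in opposite directions. The bird with the most W counts, replicate 1 at 1.2% Ca, had a Z level of 0.012, and the bird with the fewest, replicate 1 at 1.0% Ca, had one of 0.015. The 15 W genes other than the leading one shared 6 counts in the 10 birds together. No bird thus showed the expression of several W genes that is known from female tissues. W copies nearly identical to Z may be counted too low, several of the W genes are short, and the labels give no sex. No sex was therefore assigned to any bird, and no group was formed from these values.

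The small differences in Z level lay between 0.8% Ca and the other diets. In order of Ca concentration the means were -0.039 ± 0.011, 0.0088 ± 0.0079 and 0.022 ± 0.012 (± SD over 3, 4 and 3 birds), against a pooled SD within groups of 0.010. The 3 birds at 0.8% Ca lay below the other 7 birds with a gap of 0.029 between the nearest birds, and the mean of the 7 was 3.78% above that of the 3. Within lane 2, the 3 birds at 0.8% Ca were likewise below replicates 3 and 4 at 1.0% Ca. A bulk library cannot tell fewer cells of a type from less RNA per cell, and both can enter this level.

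The same separation was present on other chromosomes, so it was not particular to Z. Of 27 autosomes with at least 50 tested genes, the 3 birds at 0.8% Ca all lay below the other 7 on 5 and all lay above them on 10, and the birds overlapped on 12. The 5 autosomes on which they lay below were chromosomes 1, 2, 3, 4 and 6, which hold 10.1 to 15.8 genes of the table per Mb, and the mean of the 7 was 0.019 to 0.059 above that of the 3. The 10 on which they lay above hold 20.5 to 83.6 genes per Mb, with shifts from -0.21 to -0.046. The 12 on which the birds overlapped hold 14.7 to 30.6 genes per Mb, which runs into both of these ranges. Z holds 10.5 genes per Mb and its shift was 0.054, which is inside the range of the 5 gene-poor autosomes. Relative to chromosomes 1 to 5 alone, the groups overlapped: the 0.8% Ca birds were at 0.0061, -0.031 and -0.013, the 1.0% Ca birds between -0.0080 and 0.0057, and the 1.2% Ca birds between -0.016 and 0.033. The part of gene density in the shift was not tested.

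**Figure D2:**
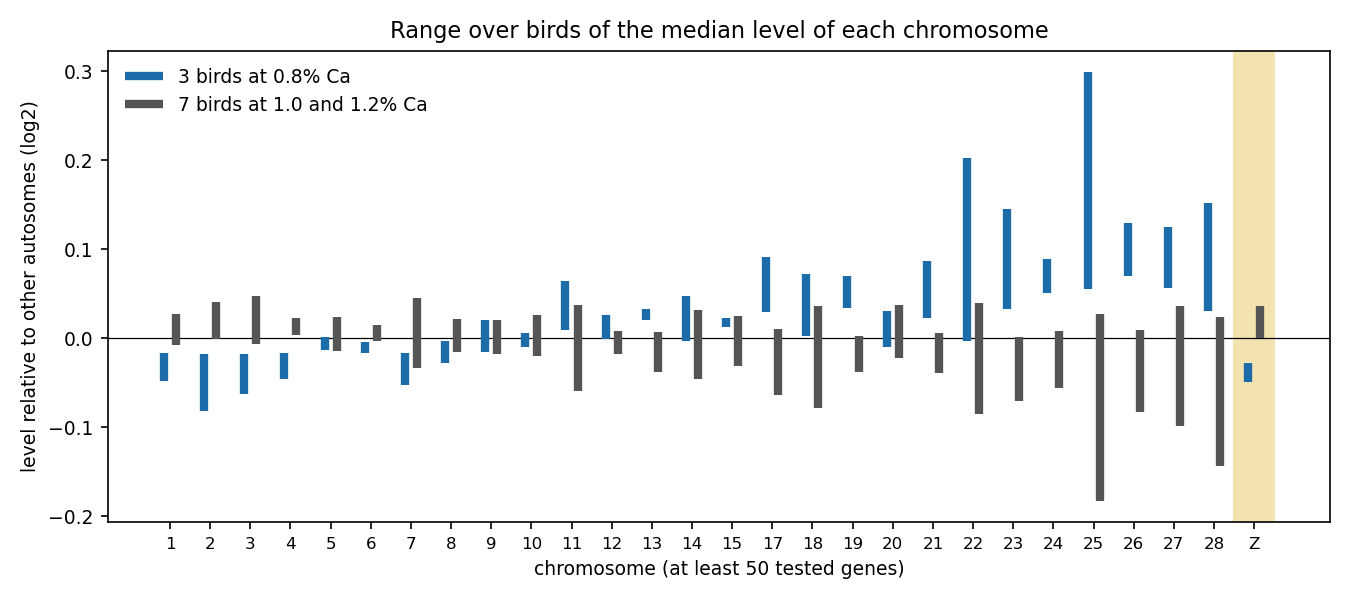
Range over birds of the median log2 level of each chromosome relative to the other autosomes, for the 3 birds at 0.8% Ca (blue) and the 7 birds at 1.0 and 1.2% Ca (grey), with Z shaded. The blue range lay below the grey one on Z and on 5 autosomes, and above it on 10 autosomes of higher gene density.

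Along the Z, the lower level at 0.8% Ca was spread over most of the chromosome. In 17 windows of 5 Mb, the mean of the 7 birds at 1.0 and 1.2% Ca was above that of the 3 birds at 0.8% Ca in 15. The birds did not overlap in 5 of them, at 10 to 15, 20 to 25, 35 to 40, 45 to 50 and 55 to 60 Mb. Autosomes were not cut into windows, so these counts have no autosomal share beside them and are not read as particular to Z. The mean of the 7 was lower at 50 to 55 Mb, with a difference of -0.020, and at 5 to 10 Mb, with -0.081. The latter window held 91 genes of the table, more than any other window of Z, and 57 of them were tested. In it, replicate 1 at 0.8% Ca was at 0.12, and the other 2 birds at 0.8% Ca were at 0.026 and 0.033, the former inside and the latter just above the range of the other 7 birds, from -0.067 to 0.030. The widest spread of a window over birds was 0.25, less than the step of a chromosome copy without compensation. Compensation would make that step smaller, and only these fixed windows were examined.

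**Figure D3:**
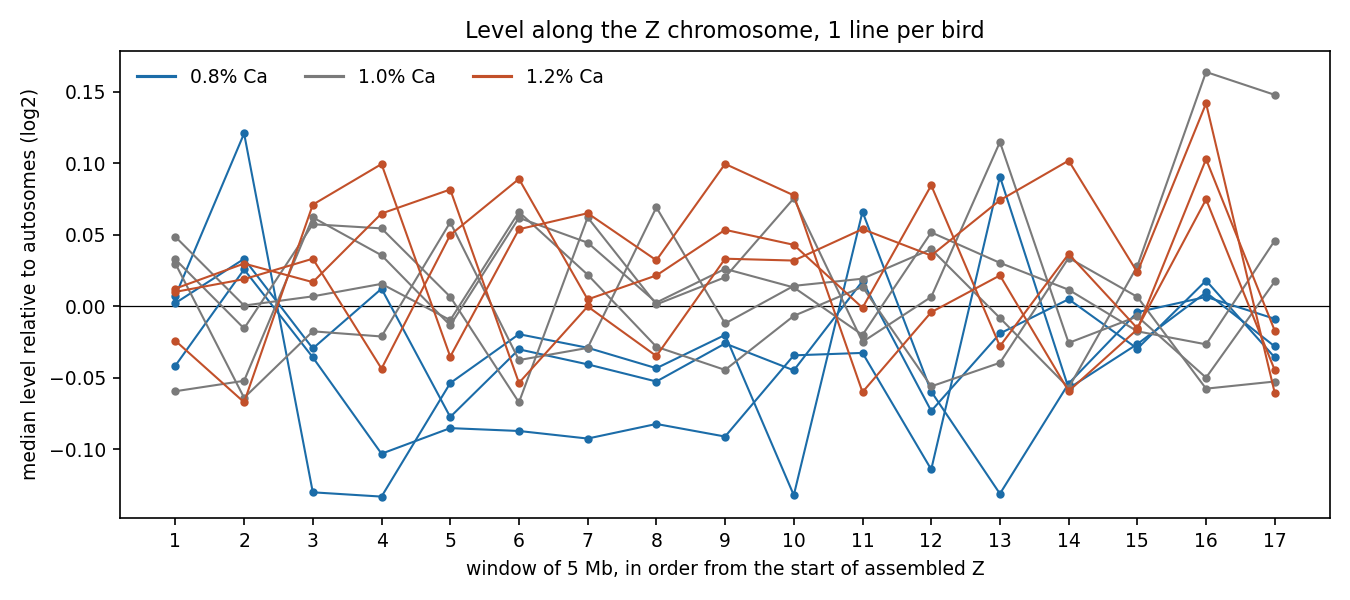
Median log2 level of tested Z genes relative to autosomes in 17 consecutive windows of 5 Mb, 1 line per bird, coloured by Ca concentration. The birds at 0.8% Ca were lower on average in 15 windows and higher in the second (5 to 10 Mb) and the eleventh (50 to 55 Mb), and no window spanned more than 0.25 over birds.

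Gene by gene, no Z or W gene passed the threshold of any comparison between Ca concentrations. Of the 657 members, 580 passed the filter on low counts and were tested, and the 77 others had 10 to 76 counts over all libraries. By the quasi-likelihood test, 0 of 580 were called for the slope on Ca concentration at an adjusted p of 0.1, and 0 for each of the 3 pairs of concentrations at 0.05, where 0% of all 12187 tested genes were called in each comparison. At an unadjusted p under 0.05, the slope had 27 Z genes higher with Ca and 19 lower, where 3.26% of all tested genes were higher and 5.76% lower. The smallest adjusted p of a Z gene was 0.394 for the slope. By the likelihood ratio test of edgeR, 0 Z or W genes were called in each comparison, where 35 genes in all (0.287%) were called for the slope, 22 (0.181%) for 1.0 against 0.8% Ca, 19 (0.156%) for 1.2 against 0.8% Ca and 3 (0.0246%) for 1.2 against 1.0% Ca. DESeq2 also called 0 members, where it called 56 genes in all (0.509%) for the slope and 30 (0.246%), 42 (0.359%) and 3 (0.0246%) for the pairs in the same order. Limma-voom called 0 members and 0% of all tested genes.

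The direction of the Z genes was shared more often than that of the autosomal genes in both comparisons with 0.8% Ca, which use the same 3 birds. The autosomal genes are pooled here. Chromosomes 1 to 4 alone had shifts of 0.040 to 0.059 between the 7 birds and the 3, beside 0.054 for Z. Between 1.0 and 0.8% Ca, 362 Z genes were higher and 217 lower at 1.0% Ca (62.5% higher, against 53.2% of autosomal genes), with a median log2 fold change of 0.060 for Z and 0.015 for autosomes. In that comparison, 24 Z genes were higher and 12 lower at an unadjusted p under 0.05, where 2.64% and 5.84% of all tested genes were. Between 1.2 and 0.8% Ca, 400 were higher and 179 lower (69.1% higher, against 52.2%), with a median of 0.080 for Z and 0.011 for autosomes, and 25 were higher and 18 lower at an unadjusted p under 0.05, beside 3% and 5.82% of all tested genes. Between 1.2 and 1.0% Ca, 302 were higher and 277 lower, the medians were 0.0055 for Z and -0.00093 for autosomes, and 15 were higher and 10 lower at that p, beside 2.31% and 1.37%. The Z median thus lay 0.045, 0.070 and 0.0064 above the autosomal median in the 3 pairs. Within lane 2 the difference for 1.0 against 0.8% Ca was 0.052, and within lane 1 that for 1.2 against 1.0% Ca was 0.0077. The birds at 1.2 and 0.8% Ca shared no lane, so this pair could not be compared within a lane. With lane as a covariate, the difference for 1.2 against 0.8% Ca was 0.0583. All 3 birds at 0.8% Ca lay below the other 7 for 16 Z genes (2.76% of 579, beside 1.42% of all tested genes) and above them for 6 (1.04%, beside 3.1%).

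Names could be given to 5 Z genes, because the position of each matched a locus that the study lists by symbol. Those loci were chosen by the study on these same libraries, so their directions are not independent evidence. The study called genes between pairs of diets with Cuffdiff at a false discovery rate under 0.05, a method unlike the one used here. None of the 5 passed the quasi-likelihood test in any comparison.

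SMC2, a subunit of the condensin complexes that compact chromosomes for cell division, lies at Z 66288453 to 66312320 (ENSGALG00000015691). It was at 38.2, 188 and 151 CPM in the birds at 0.8% Ca, at 247, 234, 108 and 168 CPM at 1.0% Ca and at 359, 221 and 179 CPM at 1.2% Ca. Replicate 1 at 0.8% Ca was the lowest bird and replicate 1 at 1.2% Ca the highest, and the groups overlapped. The slope from 0.8 to 1.2% Ca was 1.01 on the log2 scale (SE 0.484, adjusted p = 0.572). It was 0.60 without replicate 1 at 0.8% Ca and 0.20 with lane as a covariate.

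LPL, the lipoprotein lipase that releases fatty acids from circulating triglycerides, lies at Z 54352516 to 54367785 (ENSGALG00000015425). Its levels were 108, 72.7 and 49.0 CPM at 0.8% Ca, 57.1, 35.2, 79.7 and 57.3 CPM at 1.0% Ca, and 43.2, 53.8 and 38.9 CPM at 1.2% Ca. The mean was lowest at 1.2% Ca, and each pair of groups overlapped. The slope was -0.76 on the log2 scale (SE 0.298, unadjusted p = 0.0269, adjusted p = 0.506 by the quasi-likelihood test). It was -0.45 without replicate 1 at 0.8% Ca and -0.19 with lane as a covariate.

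VCAN, which encodes the extracellular matrix proteoglycan versican, lies at Z 62474981 to 62580840 (ENSGALG00000015624). It was at 223, 137 and 192 CPM at 0.8% Ca, 140, 135, 173 and 189 CPM at 1.0% Ca, and 193, 242 and 321 CPM at 1.2% Ca. Each bird at 1.2% Ca was above the 4 birds at 1.0% Ca, while the 0.8% Ca group overlapped with both. Its log2 fold change between 1.2 and 1.0% Ca was 0.66 (SE 0.204, unadjusted p = 0.00856, adjusted p = 0.961), among the 3 smallest p-values of Z genes in that comparison.

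CD180, a receptor related to the Toll-like receptors that is known from B cells, lies at Z 21157450 to 21166375 (ENSGALG00000023411). It was at 17.2, 8.80 and 8.40 CPM at 0.8% Ca, 3.75, 3.07, 10.6 and 4.09 CPM at 1.0% Ca, and 3.51, 13.2 and 27.6 CPM at 1.2% Ca. The birds at 1.2% Ca, from 3.51 to 27.6 CPM, overlapped with both other groups. The log2 fold change between 1.2 and 1.0% Ca was 1.46 (SE 0.623, adjusted p = 0.961), and it was 0.63 without replicate 3 at 1.2% Ca.

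ALPK2, a member of the alpha kinase family, lies at Z 767645 to 796574 (ENSGALG00000002898). Its levels were 11.7, 10.4 and 25.1 CPM at 0.8% Ca, 25.4, 13.7, 31.4 and 17.7 CPM at 1.0% Ca, and 8.36, 34.9 and 41.5 CPM at 1.2% Ca. The lowest and the highest bird were both at 1.2% Ca, and the slope was 0.84 on the log2 scale (SE 0.518, adjusted p = 0.647). Leaving out replicate 3 at 1.2% Ca gave 0.49, and leaving out replicate 1 at 1.2% Ca or replicate 4 at 0.8% Ca gave 1.26.

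ENSGALG00000023622, at Z 9023591 to 9024768 with 582 bases of exons, is at a locus the study lists without a symbol. It was at 203, 83.7 and 106 CPM at 0.8% Ca, 12.1, 16.5, 65.1 and 28.2 CPM at 1.0% Ca, and 19.8, 133 and 192 CPM at 1.2% Ca. All birds at 0.8% Ca were above those at 1.0% Ca, and the birds at 1.2% Ca spanned nearly the whole range. Its log2 fold change was -2.10 between 1.0 and 0.8% Ca (SE 0.713, adjusted p = 0.470) and 1.92 between 1.2 and 1.0% Ca (SE 0.711, adjusted p = 0.961). CD180 and ENSGALG00000023622 had the same 2 birds at 1.2% Ca, replicates 2 and 3, far above replicate 1. A further 3 Z loci that the study lists without a symbol matched no counted gene.

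**Figure D4:**
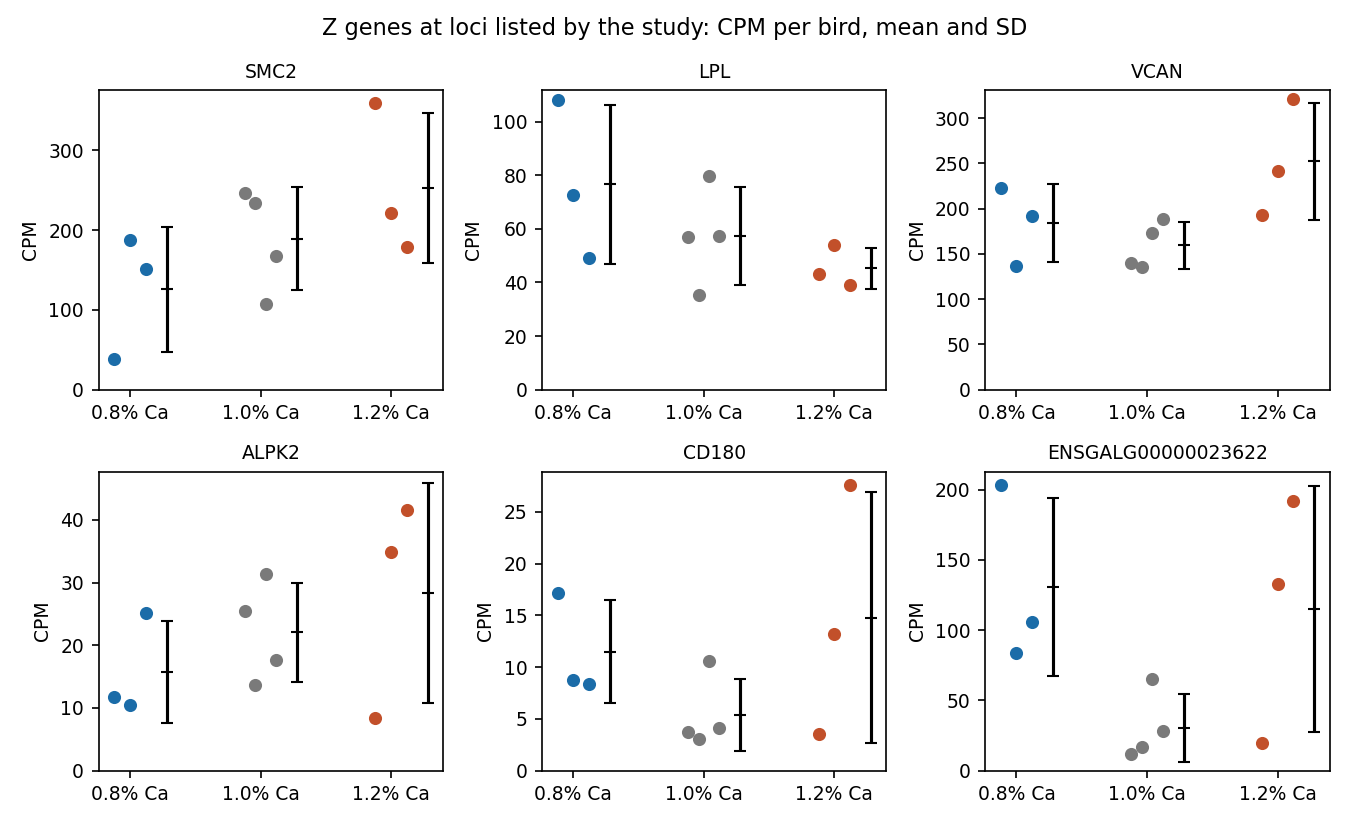
CPM per bird (points) with the mean and SD of each Ca group (bars) for the 5 named Z genes and ENSGALG00000023622. In each panel at least 1 pair of groups overlapped, and replicate 1 at 1.2% Ca was the highest bird of SMC2 and the lowest of that group for VCAN, ALPK2, CD180 and ENSGALG00000023622.

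Since no member was called, the 3 Z genes with the smallest p in each comparison were taken, and apart from VCAN they carry no name in the sources used here. ENSGALG00000026195, at Z 7802904 to 7805902, had the smallest p between 1.0 and 0.8% Ca. It was at 14.8, 16 and 14.1 CPM at 0.8% Ca, 8.97, 9.63, 9.52 and 9.82 CPM at 1.0% Ca, and 10.3, 11.1 and 11.1 CPM at 1.2% Ca. The 3 birds at 0.8% Ca were above the other 7, and the log2 fold change between 1.0 and 0.8% Ca was -0.66 (SE 0.125, unadjusted p = 0.000344, adjusted p = 0.262).

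ENSGALG00000002578, at Z 9080465 to 9084896, was at 21.5, 24.0 and 22.3 CPM at 0.8% Ca, 15.5, 18.0, 14.5 and 15.7 CPM at 1.0% Ca, and 14, 15.3 and 16.1 CPM at 1.2% Ca. Again the 3 birds at 0.8% Ca lay above the others, and the slope was -0.58 on the log2 scale (SE 0.144, adjusted p = 0.394).

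ENSGALG00000026768, at Z 50079798 to 50109297, was lowest at the middle concentration. Its levels were 19.0, 15.5 and 15.8 CPM at 0.8% Ca, 9.78, 13.7, 11.5 and 11.3 CPM at 1.0% Ca, and 17.9, 20.6 and 18.3 CPM at 1.2% Ca. The 4 birds at 1.0% Ca were below the other 6, with a log2 fold change of -0.53 (SE 0.147, adjusted p = 0.395) between 1.0 and 0.8% Ca and 0.71 (SE 0.146, adjusted p = 0.961) between 1.2 and 1.0% Ca.

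The order was the opposite for ENSGALG00000015422, at Z 53782385 to 54246036, which was at 14.6, 13.4 and 14.8 CPM at 0.8% Ca, 20.1, 20.2, 16.8 and 17.7 CPM at 1.0% Ca, and 13.1, 9.79 and 16.2 CPM at 1.2% Ca. The 4 birds at 1.0% Ca were above the other 6, and the log2 fold change between 1.2 and 1.0% Ca was -0.52 (SE 0.171, adjusted p = 0.961). ENSGALG00000014692, at Z 56036835 to 56059845, had means of 37.5 ± 5.22, 42.6 ± 7.58 and 55.1 ± 4.72 CPM (SD, n = 3, 4 and 3) in order of Ca concentration and a slope of 0.56 on the log2 scale (SE 0.155, adjusted p = 0.439). ENSGALG00000002599, at Z 9141509 to 9155184, had means of 8.27 ± 2.83, 10.9 ± 1.83 and 15.7 ± 3.86 CPM and a slope of 0.92 (SE 0.266, adjusted p = 0.440). In both of these genes the birds at 1.0% Ca overlapped with a neighbouring group, and with lane as a covariate the slopes were 0.17 and 0.56.

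Several of the genes with small p-values lie in the gene-dense window at 5 to 10 Mb, and within it a stretch from Z 8907011 to 9247668 was examined after these values had been seen. It held 23 members, of which 17 were tested and 0 called. Between 1.0 and 0.8% Ca, 14 of the 17 were lower at 1.0% Ca and 3 higher, with a median log2 fold change of -0.27 and 6 lower at an unadjusted p under 0.05, where 5.84% of all tested genes were lower. Between 1.2 and 0.8% Ca, 16 were lower at 1.2% Ca and 1 higher, with a median of -0.30, and 8 were lower and 1 higher at that p, beside 5.82% and 3% of all tested genes. The exception was ENSGALG00000002599. For 4 of the 17 genes, all 3 birds at 0.8% Ca were above the other 7, beside 3.1% of all tested genes. As the edges of the stretch were set by its values, nothing is read from these shares. The whole window of 5 to 10 Mb was mixed, with 36 of 57 tested genes lower and 21 higher at 1.0 than at 0.8% Ca (median -0.062) and 30 lower and 27 higher at 1.2% Ca (median -0.043). The nearest tested genes before the stretch, ENSGALG00000028411 and ENSGALG00000021355, had log2 fold changes of 0.49 and 0.21 between 1.2 and 0.8% Ca, and the nearest after it, ENSGALG00000002854, had -0.28. Within the stretch, ENSGALG00000002605 was at 28.3, 27.3 and 26.0 CPM at 0.8% Ca and between 20.1 and 23.4 CPM in the other birds, and ENSGALG00000002412 was at 53.7, 62.1 and 50.1 CPM at 0.8% Ca and between 38.5 and 48.3 CPM in the others. Since both comparisons use the same birds at 0.8% Ca, they do not count as separate evidence.

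**Figure D5:**
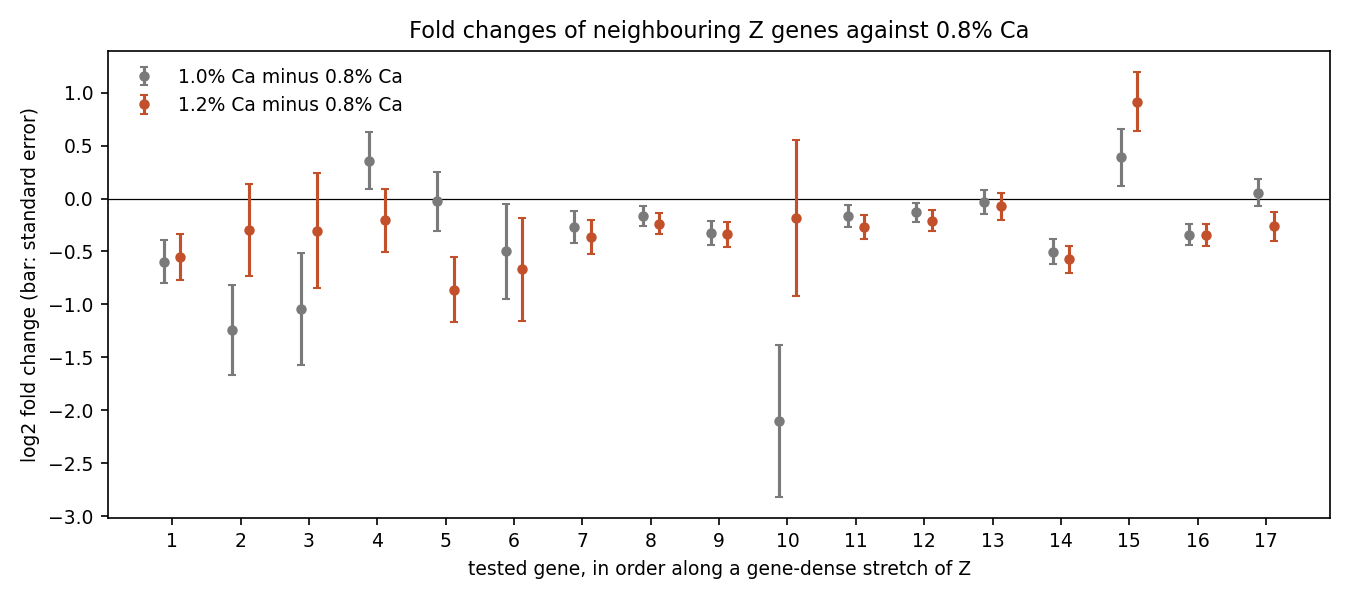
Log2 fold changes (points) with standard errors (bars) of 17 tested neighbouring Z genes, in order along the chromosome, for 1.0 against 0.8% Ca (grey) and 1.2 against 0.8% Ca (red). In the red comparison 16 of the 17 points lay below 0, and the exception was the fifteenth gene, ENSGALG00000002599. The edges of the stretch were set by these values, so nothing is read from this share.

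The 5 Z genes with the highest level per length had no name in the sources used here. ENSGALG00000015082, at Z 33595465 to 33600075, was at 1100 to 1460 FPKM with a median of 1220. The median FPKM over birds was 1010 for ENSGALG00000014857, 866 for ENSGALG00000002696, 814 for ENSGALG00000015617 and 753 for ENSGALG00000014833. The slopes of the first 4 lay between -0.20 and 0.055 on the log2 scale, and that of ENSGALG00000014833 was 0.21 (SE 0.0964, unadjusted p = 0.0485, adjusted p = 0.550 by the quasi-likelihood test) and 0.096 without replicate 3 at 1.2% Ca. The median FPKM of the Z members ranged from 0.0105 to 1220 over genes.

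Across the tested Z genes, the SD of log2 CPM over the 10 birds had a median of 0.20 (quartiles 0.14 and 0.32), close to the autosomal median of 0.22. There were 10 tested members with an SD above 1. ENSGALG00000028142, at Z 34119614 to 34137410, was singled out after its values were seen, as the one with the widest spread. It was at 7.70 CPM in replicate 4 at 0.8% Ca, 6.36 CPM in replicate 1 at 1.0% Ca and 14.4 CPM in replicate 3 at 1.2% Ca, and at 0 to 0.419 CPM in the other 7 birds. Its 3 high birds were thus 1 in each Ca group. The next was ENSGALG00000027709, at Z 16532350 to 16564521, which ranged from 0 CPM in replicate 1 to 5.74 CPM in replicate 4 among the birds at 0.8% Ca alone, and from 2.43 to 5.39 CPM at 1.2% Ca.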

How the data were processed

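Kidney RNA of 10 broiler chickens was sequenced as read pairs. After trimming (Trimmomatic) and alignment to Galgal4 (HISAT2 2.0.4), the authors ran featureCounts 1.5.0-p3 on the exons of Ensembl release 84 and deposited raw fragment counts per gene, not normalized. Counting used no strand, so reads of overlapping or antisense genes cannot be told apart, and fragments matching several places or genes were left out. Near-identical Z and W copies are therefore uncertain.

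The counts of the whole table were fitted in edgeR 4.0.16 (R 4.3.3). The filter filterByExpr kept 12187 of 17108 genes, TMM scaled the libraries, and the quasi-likelihood model used all 10 libraries with Ca as a numeric term (slope, given over 0.4 percentage points) or as a factor. Two-sided p-values received a Benjamini-Hochberg adjustment across the 12187 genes, with thresholds of 0.1 for the slope and 0.05 for pairs, as in the study. CPM and FPKM were computed from the counts and the scaled library sizes, and log2 CPM with a prior count of 1. Library totals of 6176553 to 7857813 counts mean that 1 CPM is 6.13 to 7.82 counts. The Z level per bird, the summed W level and the windows of 5 Mb along Z are descriptions without a test.

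Other settings tried were limma-voom (limma 3.58.1), DESeq2 1.42.0, the edgeR likelihood ratio test, TMM from autosomal genes, RLE factors, total counts, other filters on low counts, covariates for lane or for the W level, a replicate block, and leaving out each library. Strata of exon length and level, and fits within a lane, were added after seeing the data. The calculations were tested on simulated data, in which some genes changed 2-fold from 0.8 to 1.2% Ca along a straight line on the log2 scale. Of these, 70.1% were recovered for the slope and 58.2% for 1.2 against 0.8% Ca. Only 2.99% were recovered for 1.0 against 0.8% Ca and 7.46% for 1.2 against 1.0% Ca, pairs that each span only part of that change. Of genes that changed 4-fold from 0.8 to 1.2% Ca, 92.5% were recovered for the slope and 89.6% for 1.2 against 0.8% Ca. For 1.0 against 0.8% Ca and 1.2 against 1.0% Ca it was 62.7% and 64.2%. A 2-fold change from 0.8 to 1.2% Ca in a Z or W gene could thus be missed, above all between neighbouring concentrations.

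The named genes are the W genes with the most counts, the 3 smallest p-values on Z in each comparison as no member was called, Z genes at loci that the study lists, and the 5 Z genes highest per length. A rule for genes that differ between birds with and without W transcripts found no case. Each bird had at least 1 count of the leading W gene, and none stood apart. The other 15 W genes shared 6 counts, so a count in each bird rests on the leading gene alone. Of the 17108 identifiers, 0 matched the reference table of gene names, so of a list of 41 genes with copies on Z and W 0 could be identified, of 34 other well known Z genes 5, and of 46 markers of kidney and other tissues 0, and the tissue could not be checked against its markers. Sequences were not used here. The members and lists were chosen with earlier results of these data known.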

Additional observations from a re-analysis of the deposited data

Results flagged for a closer look

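Among the 4 birds at 1.0% Ca, 20 values were examined for a bird far from the others with Dixon's test, and 1 was found: CD180 (ENSGALG00000023411) was at 10.6 CPM in replicate 3 and between 3.07 and 4.09 CPM in replicates 1, 2 and 4, a gap of 0.864 of the range against a critical value of 0.829. Chance marks about 1 in 20 such groups.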

How the results depend on the processing

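The count of Z and W genes called was 0 in each comparison under each alternative tried, and it was 0 in each fit that left out a library. Over all genes, DESeq2 called 3 to 56 (0.0246% to 0.509%), the likelihood ratio test 3 to 35, the slope without 1.2% Ca replicate 3 called 44 (0.357%), and every other fit called 0 to 2. Each named gene was followed only in the comparison where its p was smallest in the main fit, and none passed the threshold there. Of these alternative values, 386 kept their direction and their side of the threshold and 1 did not. Sizes moved, however: with lane as a covariate the slope was 0.20 for SMC2, -0.19 for LPL and 0.17 for ENSGALG00000014692. The exception was the slope of the leading W gene, -0.22 without 1.2% Ca replicate 1, the library with 30 of its 112 counts, and at most 0.938, without 1.2% Ca replicate 3. Without a library, the Z median minus the autosomal median lay between 0.0565 and 0.084 for the slope, 0.0454 and 0.0552 for 1.0 against 0.8% Ca, 0.0538 and 0.0805 for 1.2 against 0.8% Ca, and 0.00341 and 0.0157 for 1.2 against 1.0% Ca. With lane as a covariate it was 0.0583 for 1.2 against 0.8% Ca.

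The Z level depended on what it was set against. Relative to chromosomes 1 to 5 the group means were -0.013, 0.00041 and 0.0056 in order of Ca concentration, and the lowest of the 7 birds lay at -0.022 from the highest bird at 0.8% Ca, so the groups overlapped. From median FPKM the group means were -0.043, 0.019 and 0.018 in the same order. The 3 birds at 0.8% Ca were again below the other 7, but the mean at 1.2% Ca was not above that at 1.0% Ca. In strata chosen after seeing the data, Z genes were set against autosomal genes of the same quartile. The mean of the 7 birds minus that of the 3 was 0.026, 0.083, 0.059 and 0.034 in quartiles 1 to 4 of exon length. For quartiles 1 to 4 of mean log2 CPM it was 0.12, 0.059, 0.041 and 0.038. The 3 birds overlapped with the 7 in quartiles 1 and 4 of exon length and in quartile 4 of mean log2 CPM. In the other quartiles they lay below the 7. Autosomal genes alone shifted by -0.053, -0.022, 0.012 and 0.039 in the quartiles of exon length. In those of mean log2 CPM they shifted by -0.068, -0.029, 0.0055 and 0.0265. Tested Z genes had a median exon length of 2695 bases, the longest of the chromosomes compared. The cause of these differences was not tested. Without the leading gene, the mean W level was 0.196, 0.069 and 0 CPM in order of Ca concentration. These means rest on 6 counts in all, 3 of them in replicate 3 at 0.8% Ca. They lie below the level of 3 counts in a library, 0.383 to 0.489 CPM, so no direction is read from them.

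Replicate numbers gave no sign of pairing birds across diets: of 8 same-numbered pairs, correlations of deviations ran from -0.40 to 0.33 and 2 were over 0.1. With the replicate number as a block, 0 members were called and the Z median minus the autosomal median was 0.069 for the slope, and 0.0542, 0.0665 and 0.015 for the 3 pairs. At this depth a W gene at 0 counts in a library may lie at up to 0.383 to 0.489 CPM.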
